A study of Drosophila melanogaster with 2 samples.

Results

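Autosomal intronic Jim regions are the peaks of GFP-tagged Jim that lie inside genes of the autosomes but away from any promoter. They were taken from the deposited list on the dm6 genome that is thresholded on the irreproducible discovery rate (IDR). That rate rests on how alike regions rank in replicates. The regions of the list were, without a gap, the strongest of those called on both replicates together. A place in the list therefore does not show that a single region ranked alike in the replicates. A region was a member when its summit lay on an autosome, more than 500 bp from every annotated transcript start, inside a gene body and in no annotated exon of any gene. This left 365 regions, which is 29.5% of the 1237 autosomal IDR regions (95% interval 27.0% to 32.1%) and 24.7% of all IDR regions. The data come from chromatin immunoprecipitation and sequencing (ChIP-seq) of whole Drosophila melanogaster larvae at the wandering stage, sexes pooled and age unknown. All larvae were of 1 transgenic line, jim-GFP, that stably expresses Jim with GFP fused at its C terminus, and an antibody against GFP was used. There was 1 group of 2 biological replicates, numbered 1 and 3 in the labels, with library size ranges of 175 to 275 bp in replicate 1 and 200 to 325 bp in replicate 3. No second condition was measured and values of a control were not used here, so nothing below is a test between conditions. Whole larvae mix all tissues, so a region that is strong in few cells and one that is weak in many cannot be told apart.

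Jim is a C2H2 zinc finger protein, a class in which an array of small zinc-binding folds reads DNA sequence. In flies, introns hold many enhancers, short stretches bound by transcription factors that set when and where a gene is transcribed, and the long introns of developmental genes are dense in them. In wandering larvae a pulse of the steroid ecdysone starts metamorphosis, and many genes of the ecdysone cascade, of growth control and of imaginal disc patterning are known to be governed from such elements. ChIP-seq shows where a protein is recovered on chromatin, whether it touches the DNA itself or is held there by other proteins.

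The sequences at the summits show what many of the regions share. Each window below is 101 bp long, centred on the summit and printed 5′ to 3′ from the plus strand of dm6, from the RefSeq genome sequence. Capitals mark 1 kind of sequence per window, and other matches in the same window stay in lower case. The first set shows 3 strong regions with a GA repeat (GAGAG, or CTCTC on the other strand), the letters that GAGA factor and Pipsqueak are known to read.
jim, chr3L:22822624-22822724: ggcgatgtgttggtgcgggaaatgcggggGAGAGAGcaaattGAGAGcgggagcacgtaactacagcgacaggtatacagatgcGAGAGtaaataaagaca
CG5953, chr2L:16526115-16526215: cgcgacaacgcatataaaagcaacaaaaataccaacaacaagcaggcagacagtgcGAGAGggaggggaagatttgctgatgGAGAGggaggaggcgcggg
crol, chr2L:11806819-11806919: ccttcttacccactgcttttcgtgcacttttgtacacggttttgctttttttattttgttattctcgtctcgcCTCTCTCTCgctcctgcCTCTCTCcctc
The next set shows 2 strong regions with an A tract, a run of at least 8 A on either strand.
spi, chr2L:19573162-19573262: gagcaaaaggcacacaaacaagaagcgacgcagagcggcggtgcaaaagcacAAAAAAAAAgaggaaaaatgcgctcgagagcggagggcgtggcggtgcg
Snoo, chr2L:7909598-7909698: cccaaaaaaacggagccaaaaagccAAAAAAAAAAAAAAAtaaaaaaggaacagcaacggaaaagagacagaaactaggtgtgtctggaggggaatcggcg
The last set shows strong regions with a CA repeat (CACACACA or its complement), an AP-1 site (TGACTCA) and a forkhead site (TGTTTAC), all searched on both strands.
InR, chr3R:21616233-21616333: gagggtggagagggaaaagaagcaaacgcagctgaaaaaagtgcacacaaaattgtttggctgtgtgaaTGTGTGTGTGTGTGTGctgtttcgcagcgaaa
osp, chr2L:14685769-14685869: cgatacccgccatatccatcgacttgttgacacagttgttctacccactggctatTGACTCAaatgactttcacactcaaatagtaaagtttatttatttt
S, chr2L:1072368-1072468: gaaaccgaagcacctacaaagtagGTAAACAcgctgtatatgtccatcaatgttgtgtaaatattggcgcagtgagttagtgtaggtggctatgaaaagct
CG13917, chr3L:1591830-1591930: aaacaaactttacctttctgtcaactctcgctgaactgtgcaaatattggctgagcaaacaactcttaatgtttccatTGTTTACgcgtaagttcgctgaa
The strongest window, in jim, holds 3 separate GA stretches, the one in crol holds 2 CT stretches close to its right end, and the tract in Snoo is a run of 15 A. A match is a description of the letters and not a site of binding.

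A GA repeat stood in 113 of the 365 summit windows (31.0%, 26.3% to 36.0%). The share was 14.9% in windows of the same size centred 1000 bp to each side of the same summits, 14.1% at the 10237 weaker intronic regions, 20.5% at the 726 autosomal promoter regions and 35.2% at the 108 autosomal intergenic regions. Weaker intronic regions are those of the pooled list, called on both replicates together, that meet the same position rule but fall outside the IDR list. Promoter regions have their summit within 500 bp of a start, and intergenic regions lie farther away and outside genes, both within the IDR list. The repeat was broad, with 29.0% of windows centred 100 bp before the summit, 29.6% of those 100 bp after it, and 20.5% and 19.5% at 200 bp before and after. The interval of the regions overlapped that of intergenic regions (26.2% to 45.0%) and lay above those of promoter regions (17.6% to 23.6%) and of the flanks (12.4% to 17.7%). Without replicate 1, which leaves the list of replicate 3 alone, the share was 26.5%, and without replicate 3 it was 33.6%. Intervals throughout are exact, at 95%, and cover counting error only, since regions are not replicates and neighbouring regions share a gene.

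The A tract was narrower and stood on the summit itself. It was found in 83 of the windows (22.7%, 18.5% to 27.4%), against 7.53% of the flanks, 8.86% of weaker intronic regions, 11.3% of promoter regions and 25.9% of intergenic regions. At 100 bp before the summit its share was 10.4% and at 100 bp after it 9.04%. The nearest tract lay at a median of 15.5 bp from the summit. The tract stood on the strand of the host gene in 31 regions and on the other strand in 52. Runs of at least 10 A or T reached 12.3% of the windows, against 2.74% of the flanks, and the longest run was 21 bases in the regions and 25 in the flanks. The median AT content of the windows, 55.45%, was below the 58.42% of the flanks and above the 53.96% of promoter regions and the 53.47% of intergenic ones. How well reads map to such repeats was not tested.

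The CA repeat followed with 32 windows (8.77%, 6.07% to 12.2%), against 4.25% of the flanks and 5.37% of promoter regions. Any of these 3 repeats was present in 190 windows (52.1%), against 24.4% of the flanks, 24.5% of weaker intronic regions, 32.5% of promoter regions, 54.6% of intergenic regions and 55.4% of the 101 intronic regions of X. The intronic regions of the autosomes and of X and the intergenic regions lay closer to each other than to the promoter regions. Only 23 windows (6.30%) held both an A tract and a GA repeat. Regions with an A tract had a median signal of 84.0, against 87.05 in those without, and were found in both replicates in 43.4%, against 51.8%. A region counts as found when its summit falls in a strong region of the replicate, that is, in one of as many regions from the top of that replicate's list as the IDR list holds. Regions with a GA repeat had a median signal of 86.8, against 85.1 without, and were in both replicates in 57.5%, against 46.4%.

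Among sequences read by known factors, the forkhead site and the AP-1 site had higher shares than in the flanks, with intervals that overlapped those of the flanks. The forkhead site TGTTTAC, read by Foxo and its relatives, was in 17 windows (4.66%, 2.74% to 7.35%), against 1.64% of the flanks (0.852% to 2.85%). It was at 4.55% of promoter regions, 4.63% of intergenic regions and 2.97% of intronic regions of X. Weaker intronic regions were at 2.68% (2.37% to 3.01%), an interval that overlapped that of the members. In the list of replicate 3 alone it reached 7.92%, against 1.61% of its flanks, and in that of replicate 1 alone 3.80%, also against 1.61%. The AP-1 site TGACTCA, read by Jun and Fos dimers, was in 11 windows (3.01%, 1.51% to 5.33%), against 1.10% of the flanks, 1.05% of weaker intronic regions, 1.10% of promoter regions and 0 of 108 intergenic regions, with an exact upper bound of 3.36%. Of these 11 regions, 8 (72.7%) were found in both replicates, against 49.9% of all members and 50.1% of the IDR list. With so few regions this difference was not tested. The interval of the flanks was 0.474% to 2.15%. The homeodomain core TAATTA went the other way, with 5 windows (1.37%, 0.446% to 3.17%), against 5.34% of the flanks (3.83% to 7.23%), 6.24% of weaker intronic regions and 3.31% of promoter regions.

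**Figure D1:**
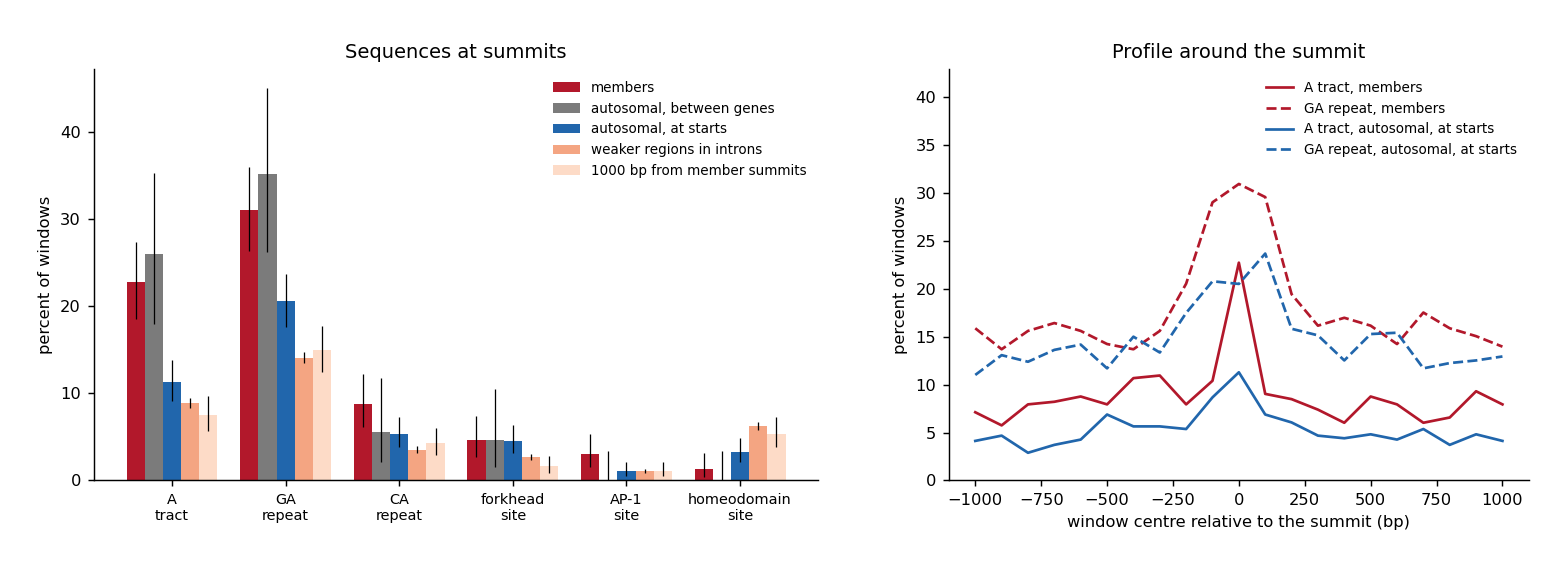
Left, percent of 101 bp summit windows that hold each sequence on either strand, for the intronic regions (members), autosomal intergenic and promoter regions of the IDR list, weaker intronic regions and windows 1000 bp from member summits, with exact 95% intervals as bars. Right, the share of windows with an A tract or a GA repeat at steps of 100 bp from the summit; the A tract of the members peaks at 22.7% in the summit window alone, and the GA repeat stays near 30% to 100 bp on each side.

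The shares of the other 15 sequences searched, each on both strands, are listed here as the regions against their flanks. The GATA site GATAAG was at 3.84% against 6.16%, and the Mad-type GCCGNCG at 5.75% against 3.29%. The E-box CAGCTG was at 6.85% against 6.16%, and the E-box CACGTG at 1.37% against 1.10%. The C/EBP-type TTGCNNAA was at 9.32% against 7.81%, and the STAT-type TTCNNNGAA at 1.64% against 3.01%. The Su(H)-type TGGGAA was at 3.84% against 5.34%, and the nuclear receptor core AGGTCA at 2.19% against 2.47%. The Zelda-type CAGGTAG was at 0.548% in both, and the Sd-type ACATTCC at 1.10% against 0.685%. The TCF-type ATCAAAG was at 0.822% against 1.51%, the ETS-type CCGGAAG at 0.548% against 0.411%, and the KLF-type CCACGCCC at 0.822% in both. The promoter element GGTCACACT was in 0 windows, against 0.274% of the flanks and 1.24% of promoter regions. The DRE core TATCGATA, another promoter element, was in 1 window (0.274%), against 0.137% of the flanks and 2.75% of promoter regions.

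Short words without a preset name were also compared with the flanks, and 7 of the 10 with the largest ratios were of G and A alone on 1 strand. Of 120 words of 6 bases present in at least 10% of the windows, CCCTCC had the largest ratio to the flanks, at 11.8% against 3.42%, with 10.2% of intergenic regions and 3.44% of promoter regions. It was followed by AGGGGG at 12.9% against 4.38%, by CCCCTC at 12.9% against 4.52% and by AAGGGG at 12.6% against 4.52%. The next words were CAGAGA at 11.5% against 4.25%, CTCTGC at 10.7% against 4.11% and CCTCTC at 11.0% against 4.25%, then CGAGAG at 11.2% against 4.38%. GAGGGA, at 10.1% against 3.97%, and GGGGGA, at 11.5% against 4.52%, completed the 10 largest. At promoter regions GGGGGA was at 2.76% and GAGGGA at 2.89%, and at intergenic regions GGGGGA was at 21.3%. The GA repeat itself is part of 2 of the 10 words, CCTCTC and CGAGAG. How often the words share a window with it was not tested.

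The deposited signal, the height of a region on the scale of the authors' caller, put the regions level with promoters. Their median signal was 85.63 (82.21 to 90.41), with a range of 65.28 to 529.53, against 85.63 (83.39 to 88.62) and at most 491.55 at promoter regions and 84.46 at intergenic ones. Intronic regions of X had a median of 95.06 (85.65 to 107.04). The regions supplied 31 of the strongest 100 of the IDR list (8.49% of the members), and promoter regions 37 (5.10% of theirs). Most regions were deposited at the same width of 260 bp, and the 22 narrower ones had a median signal of 211.65. Of the 10 strongest regions 9 were narrow, of the strongest 50 it was 21, and of the weakest 50 it was 0.

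The share of intronic regions was not uniform along the ranking. Among the 75 autosomal regions in the strongest 100 it was 41.3% (30.1% to 53.3%), and among the next 200 ranks it was 30.5% (23.5% to 38.1%), with overlapping intervals. Just past the end of the IDR list, up to rank 3000, it was 32.3%, and it was 42.7% at ranks 12001 to 20000. Over those same bins the promoter share was 49.3%, 57.9%, 54.1% and 18.2%. Among all 24881 weaker autosomal regions, 41.1% were intronic and 23.2% were at promoters.

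**Figure D2:**
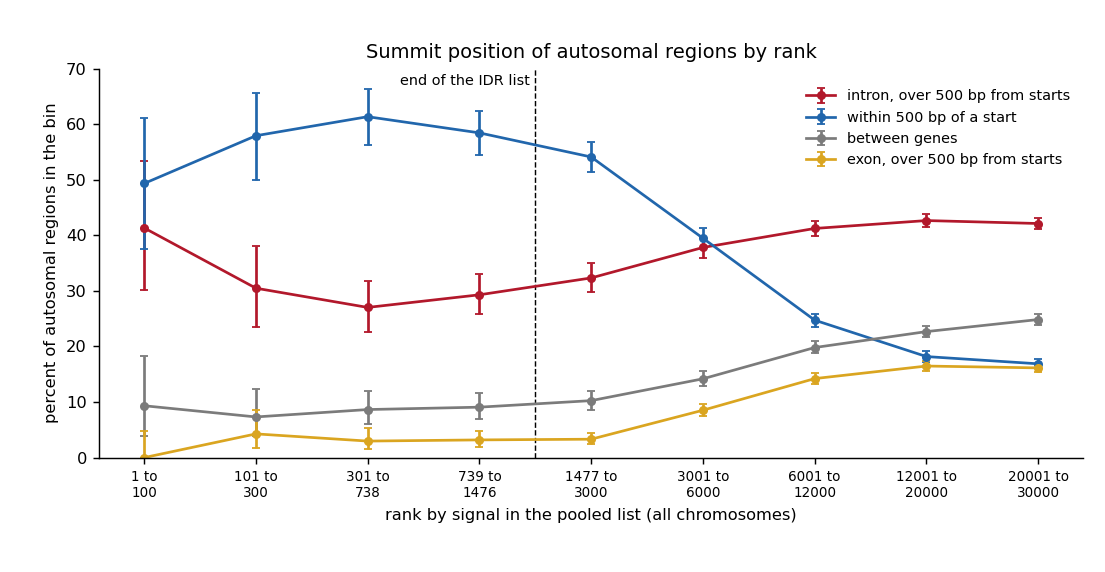
Percent of autosomal regions whose summit lies in an intron more than 500 bp from starts, within 500 bp of a start, between genes or in an exon, by rank of signal in the pooled list, with exact 95% intervals; the dashed line ends the IDR list. The intronic share is 41.3% in the strongest bin, between 27.0% and 30.5% in the rest of the IDR list and 42.1% in the weakest bin, where the promoter share is 16.9%.

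The 10 strongest intronic regions were recovered in both replicates, at rank 184 or better in replicate 1 and at rank 44 or better in replicate 3. Of these 10, 5 held a GA repeat, 2 a forkhead site, 1 an AP-1 site and 0 an A tract. The strongest lay in jim itself (FBgn0027339), in intron 2 of the canonical transcript, with a signal of 529.5 in the IDR list, 227.2 in replicate 1 and 302.9 in replicate 3, where it ranked 1 and 2. The larvae carry a jim transgene, and the sources used here do not say whether it holds this intron. The region in intron 1 of osp (FBgn0003016, outspread, named for the wing posture of its mutants) reached 528.0 in the IDR list, 155.9 in replicate 1 and 375.5 in replicate 3, with ranks 12 and 1. The next member, in CG5953 (FBgn0032587), stood well below these at 350.0, with ranks 16 and 6.

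The region of S (FBgn0003310), which encodes Star, a protein that helps EGF receptor ligands leave the endoplasmic reticulum, had a signal of 272.7, at rank 48 in replicate 1 and rank 9 in replicate 3. In crol (FBgn0020309), an ecdysone-responsive zinc finger gene, the signal was 261.6, with ranks 39 and 18. The region of CG13917 (FBgn0035237) had a signal of 251.7 and differed most of the 10 between the replicates, ranking 184 in replicate 1 and 7 in replicate 3. In ush (FBgn0003963), the FOG-family cofactor of GATA factors, the signal was 233.7 with ranks 51 and 28, and in cno (FBgn0259212), which encodes the junction protein Canoe, it was 231.3 with ranks 60 and 32. The last of the 10, in CG14073 (FBgn0036814), had a signal of 228.8 and ranks 59 and 44.

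Over all members the replicates shared fewer regions than among these 10. Replicate 1 held 247 of the regions among its strong ones (67.7%), replicate 3 held 280 (76.7%), both held 182 (49.9%, 44.6% to 55.1%) and neither held 20 (5.48%). Over the whole IDR list 50.1% were in both, so the regions stood at the background. Promoter regions were in both in 52.1%, intergenic regions in 43.5% and intronic regions of X in 56.4%. Among the strongest 50 intronic regions 47 were in both, and among the weakest 50 it was 7. In the whole lists of 30000 regions per replicate, 340 (93.2%) were found in both. The median rank was 859.5 in replicate 1 and 681.0 in replicate 3, and the summits of the replicates stood a median of 17.0 bp and 6.0 bp from that of the IDR region.

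**Figure D3:**
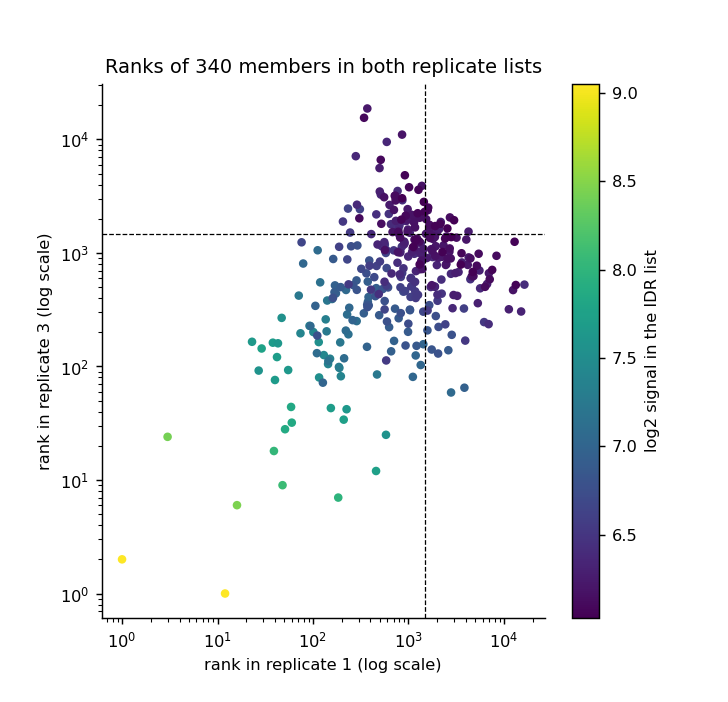
Rank of each intronic region in replicate 1 (x axis) against its rank in replicate 3 (y axis), both on log scales, for the 340 regions whose summit lies in a region of both whole lists; colour gives the log2 signal in the IDR list and the dashed lines mark the rank to which a region counted as strong, which is the length of the IDR list. The strongest regions sit at low ranks in both, while many of the weakest lie past the line in 1 replicate.

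The regions were spread over the large autosomal arms in like density. Autosomal sequence that met the position rule came to 42.6 Mb, called eligible sequence below, which is 38.6% of the arms, and the density over it was 8.56 regions per Mb. Arm 2L held 79 regions (9.21 per Mb), 2R 99 (10.7 per Mb), 3L 85 (8.18 per Mb) and 3R 102 (7.38 per Mb). Chromosome 4 held 0 in 0.575 Mb.

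Within introns the regions lay nearer to starts than the eligible sequence does. The median distance to the nearest start was 2293 bp (quartiles 1087 and 5920 bp, largest 29151 bp), against 3961 bp for weaker intronic regions and 5671 bp for eligible bases. Between 501 and 1000 bp lay 79 regions (21.6%), against 11.5% of weaker regions and 8.37% of eligible bases. Beyond 10000 bp lay 48 (13.2%), against 20.6% of weaker regions and 33.1% of eligible bases. The median signal was 91.46 in the nearest bin and 82.23 in the farthest. The rule places a limit inside this slope. Just over 500 bp were a region of loco at 501 bp (3R, 22627005 to 22627264, signal 135.4), one of Kank at 505 bp (2R, signal 65.4) and one of hppy at 506 bp (2R, signal 150.5). Just under it were intronic regions in Pen, 497 bp from a start (signal 79.2), and in Eip63F-1 and Hr39, both 490 bp from one (signals 73.4 and 69.0). These genes are the hosts, and the nearest start can be that of another gene. The nearest start belonged to the host gene for 260 regions (71.2%) and to a protein-coding gene for 308 (84.4%).

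The first intron of the host gene held the largest number. Numbered in the canonical transcript, 173 regions (47.4%, 42.2% to 52.7%) were in the first intron, against 35.4% of weaker intronic regions and 28.2% of eligible bases. Introns from the third on held 49 (13.4%), against 30.3% of weaker regions and 40.4% of eligible bases. First introns lie near starts, yet the order was the same at each distance. At 501 to 1000 bp the first-intron share was 60.8% of the regions, against 47.9% of weaker regions and 46.1% of eligible bases, and beyond 10000 bp it was 35.4%, against 21.1% and 14.5%. Those last regions number 48, with an interval of 22.2% to 50.5%. Between 1001 and 5000 bp the intervals of the regions held the shares of the weaker ones and also those of eligible bases. Host introns had a median length of 11817 bp over the 310 regions inside an intron of the canonical transcript, and the nearest exon was at a median of 1204 bp. The span free of any annotated exon around the summit had a median of 6751 bp. That was shorter than the 9482 bp for eligible bases.

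Regions gathered in particular genes. The members with a protein-coding host, 362 of 365, fell in 254 genes, which is 3.34% of the 7602 autosomal protein-coding genes with eligible sequence. Of these genes, 181 held 1 region, 46 held 2 and 27 held at least 3. The 12 genes with at least 4 regions held 66 of them, 18.1% of all. Longer genes were hit more often, from 0.126% of genes with up to 1000 bp of eligible sequence to 25.3% of those with over 50 kb, so counts per gene are given with their eligible length. In the replicates taken alone there were 236 host genes in replicate 1 and 299 in replicate 3, and 171 of the 254 (67.3%) were in both of those sets.

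Transcription cofactor genes led. The corepressor gene sbb (scribbler, FBgn0285917, 2R) held 11 regions, all in the first intron of its canonical transcript, with signals of 203.8, 199.5, 160.5, 117.6, 110.7, 108.0, 91.6, 88.0, 82.7, 77.0 and 65.8. They lay 974 to 21428 bp from starts, over 56.1 kb of eligible sequence. The denser tara (taranis, FBgn0040071, 3R), a SERTA-family cofactor gene, held 8 in 29.3 kb, with signals of 168.6, 127.5, 113.9, 101.4, 76.1, 75.9, 68.9 and 66.9, also all in its first intron. The canonical transcript of tara has only 1 intron, and the first intron of sbb spans 65649 bp of a 79.1 kb gene. Gene structure thus left little room for regions in other introns. In ush the 4 regions had signals of 233.7, 143.3, 108.7 and 100.4. The replicates taken alone gave 10 and 8 regions in sbb, 7 and 8 in tara, and 4 and 5 in ush, for replicates 1 and 3 in that order.

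The insulin receptor gene InR (FBgn0283499, 3R) held 6 regions, with signals of 206.8, 149.1, 123.5, 114.4, 96.7 and 86.8. Of these, 5 were in its first intron and the one at 123.5 was in its second. Each replicate alone gave 5. The chromatin gene tou (toutatis, FBgn0033636, 2R) also held 6, with signals of 203.6, 135.8, 87.0, 85.6, 66.9 and 66.9, in 22.5 kb. In tou replicate 1 alone gave 7 and replicate 3 gave 4. The 4 regions of jim had signals of 529.5, 128.1, 113.5 and 84.5, all in its second intron, with 3 in replicate 1 and 4 in replicate 3. That intron is 30195 bp long, and the gene holds 30.2 kb of eligible sequence.

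Hormone and signalling genes made up most of the rest. EcR (FBgn0000546, 2R), the ecdysone receptor gene, held 5 regions, with signals of 152.4, 125.4, 93.5, 77.6 and 67.1, and each replicate alone gave 4. Eip75B (FBgn0000568, 3L), an early ecdysone-induced nuclear receptor gene, held 5 of 109.8, 85.2, 84.0, 66.6 and 66.4, with 4 in replicate 1 and 3 in replicate 3. The coactivator gene tai (taiman, FBgn0041092, 2L), whose product works with EcR, held 4 of 87.1, 74.0, 70.5 and 66.4, with 3 in replicate 1 and 2 in replicate 3. The strongest regions of tai and Eip75B stood below the strongest of EcR. The zinc finger gene shn (schnurri, FBgn0003396, 2R), which acts in Dpp signalling, held 5 of 150.8, 124.9, 88.8, 81.8 and 72.6, with 7 in replicate 1 and 3 in replicate 3. The epidermal transcription factor gene grh (grainy head, FBgn0259211, 2R) held 4 of 91.2, 77.6, 75.8 and 70.8, but only 1 in replicate 1 and 3 in replicate 3. Tet (FBgn0263392, 3L), of the TET dioxygenase family, held 4 of 91.0, 83.1, 81.8 and 73.1, with 4 in replicate 1 and 3 in replicate 3.

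**Figure D4:**
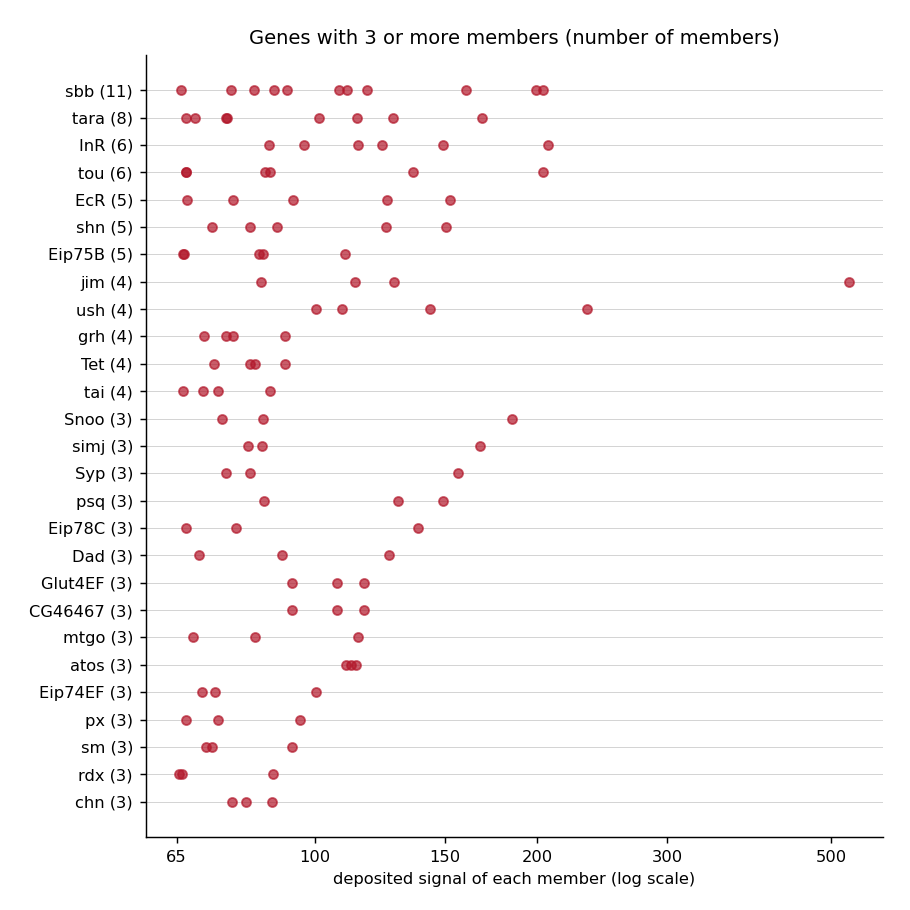
Deposited signal of every intronic region (x axis, log scale) in the 27 genes that hold at least 3, 1 gene per row with its number of regions. The rows of sbb and tara spread over a wide range of signal, and the point of jim at 529.5 stands alone.

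Host genes also carried a peak at their own start more often. An IDR summit lay within 500 bp of an own start in 91 of the 254 host genes (35.8%, 29.9% to 42.1%), against 8.15% of the 7348 eligible genes without an intronic region and 9.08% of all 7602. Host genes are longer, with 13.2 kb of eligible sequence at the median, against 0.402 kb in the genes without. Among genes with at least 10 kb of eligible sequence, the share was 40.8% (32.8% to 49.2%) of 147 host genes, against 12.3% (10.2% to 14.7%) of 846 genes without. Host genes were still longer there, with a median of 30.8 kb of eligible sequence against 22.7 kb. How much of the difference goes with length was not tested. Of the 12 genes with at least 4 regions 9 had such a start peak, and tou, grh and tai did not.

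Gene lists place the host genes by function, each read against the 3.34% of all eligible genes that hold a region and against 8.80 regions per Mb of their eligible sequence. Corepressors and cofactors were densest, with 6 of 13 eligible genes and 28 regions, which is 127.8 per Mb (84.9 to 184.65). Beside ush, sbb and tara these were Sin3A (highest signal 130.7), the scaffold of a histone deacetylase complex, tna (106.1) and CtBP (72.2), a corepressor. As sbb and tara were known from these data when the list was drawn up and hold 19 of its regions, the list was also read without them, and the other 9 regions came to 67.25 per Mb (30.75 to 127.67). Of these 9 regions, 4 lay in ush. Polycomb and trithorax group genes, which hold transcriptional states, had 9 of 29 and 18 regions, 62.8 per Mb (37.2 to 99.3). They were led by psq (149.2) and Trl (108.4), which encode the GA-reading proteins Pipsqueak and GAGA factor, and by jing (100.1) and kis (94.5).

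The ecdysone response list had the largest share of its genes, 11 of 20, with 29 regions at 47.5 per Mb (31.8 to 68.2). Its strongest hosts were crol, EcR, Eip78C (137.9), a nuclear receptor gene, and Eip75B, followed by Eip74EF, ftz-f1, Hr3, tai, Kr-h1, Hr39 and Blimp-1. In the replicates taken alone 9 and 11 of the 20 were hosts. The Dpp pathway had 5 of 20 at 42.9 per Mb (22.2 to 75.0), with shn, Dad (125.9), the inhibitory Smad, dlp (80.6), a glypican, and tkv (77.8), a receptor. The EGF receptor pathway had 8 of 21 at 25.6 per Mb (12.3 to 47.1), led by S, by spi (201.6) and Krn (137.1), both ligands, and by aop (131.1), an ETS repressor. The receptor gene Egfr itself held 2 regions, the stronger at 125.1. The insulin and TOR list had 3 of 25, InR, bun (77.1) and foxo (69.3), at 36.5 per Mb (16.7 to 69.4), and replicate 3 alone gave 5 genes. InR supplied 6 of its 9 regions, and the other 3 came to 14.1 per Mb (2.90 to 41.2), an interval that holds the background density.

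Neuroblast and temporal factors had 5 of 16 at 30.6 per Mb (15.8 to 53.4), led by brat (183.5), Syp (156.1), chinmo (106.2) and lola (98.6), but replicate 1 alone gave 3. The remaining host, grh, held 4 of the 12 regions and is also counted in the Polycomb and trithorax list. BTB zinc finger factors had 5 of 17 at 19.8 per Mb, with fru (187.4) ahead of psq, Trl and chinmo. Of these, psq and Trl are also counted in the Polycomb and trithorax list, and chinmo in the neuroblast list. The Hippo pathway had 5 of 21 at 22.0 per Mb, with crb (116.8), an apical polarity gene, hth (80.5), kibra (72.4) and the kinase gene wts (70.5). Without their gene of most regions, crb and psq, the Hippo and BTB lists came to 16.3 per Mb (5.29 to 38.02) and 14.8 per Mb (5.45 to 32.3), which also hold the background density. These readings without 1 gene, and that of the insulin list, were chosen after the values were seen. The list of GATA factors and their cofactor ush had 1 of 6 genes, at 37.0 per Mb (10.1 to 94.7). That gene was ush, which is also counted among the cofactors. The 5 GATA factor genes held 0 regions over 58.3 kb, which allows up to 63.3 per Mb. Trachea and hypoxia had 3 of 17, sima (169.8), the fly HIF-alpha, LamC (82.1) and pyd (72.7), and protein kinase A and cAMP had 3 of 14, Pka-C1 (210.4), Pde11 (133.7) and CrebA (70.1). The intervals of the trachea and protein kinase A lists held the background density.

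Smaller counts filled the remaining lists. For each list of this paragraph the gene share was over 3.34%, but the density interval held the background of 8.80 per Mb. The Wingless, muscle and Hox lists, at 7.68, 7.80 and 3.70 per Mb, were below it. Innate immunity was at 19.7, circadian at 19.6 and Notch at 9.67 per Mb. The salivary glue list was at 73.95 per Mb (1.87 to 412), over only 13.5 kb. Innate immunity had cact (143.1), the fly IκB, and PGRP-LB (84.2), 2 of 20. The circadian list had vri (136.1), a clock repressor, 1 of 12, with 2 genes in replicate 3 alone. Muscle had how (127.8) and Tm1 (98.9), 2 of 25, with 1 gene in replicate 3 alone. The Wingless pathway had fz (110.8), nmo (104.4) and Notum (74.8), 3 of 18, with 1 gene in replicate 1 alone, and the Notch pathway had numb (76.6) and mam (74.8), 2 of 13, with 1 gene in replicate 1 alone. The Notch list leaves out the ligand gene Delta (FBgn0000463), whose symbol in the list matched no gene uniquely. Delta held 2 regions, of 85.4 and 75.9, and with it the list had 3 of 14 genes and 4 regions, at 17.8 per Mb (4.84 to 45.5). Hox genes had Abd-B (78.8), 1 of 8, and the salivary glue list had 1 of 4, with 0 in each replicate alone. That gene was CrebA, which encodes a bZIP transcription factor and not a glue protein, and which is also counted in the protein kinase A list.

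The axon guidance and cell adhesion list lay below the background density. It had 2 of 76 genes, Fas3 (125.7) and caps (65.8), at 0.70 per Mb (0.08 to 2.53) over 2854.7 kb of eligible sequence, although replicate 3 alone gave 5 genes and replicate 1 alone 1. Ion channels and synapse had 2 of 40, KCNQ (218.8) and Ca-beta (70.5), at 2.59 per Mb (0.31 to 9.35), an interval that holds the background density. Homeobox genes outside Hox had 1 of 48, hth, at 3.36 per Mb (0.41 to 12.1), with 2 genes in each replicate alone. JNK and AP-1 genes had 0 of 12 over 169.7 kb, which allows up to 21.7 per Mb, and replicate 3 alone gave 1. Fat body and lipid genes had 0 of 18, with 1 in each replicate alone, cuticle protein genes 0 of 30 and ribosomal protein genes 0 of 22. The fat body, cuticle and ribosomal protein lists hold only 67.6, 59.6 and 4.0 kb of eligible sequence. Their exact upper bounds of 54.6, 61.9 and 914 per Mb lie over the background, so these counts of 0 are not informative.

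**Figure D5:**
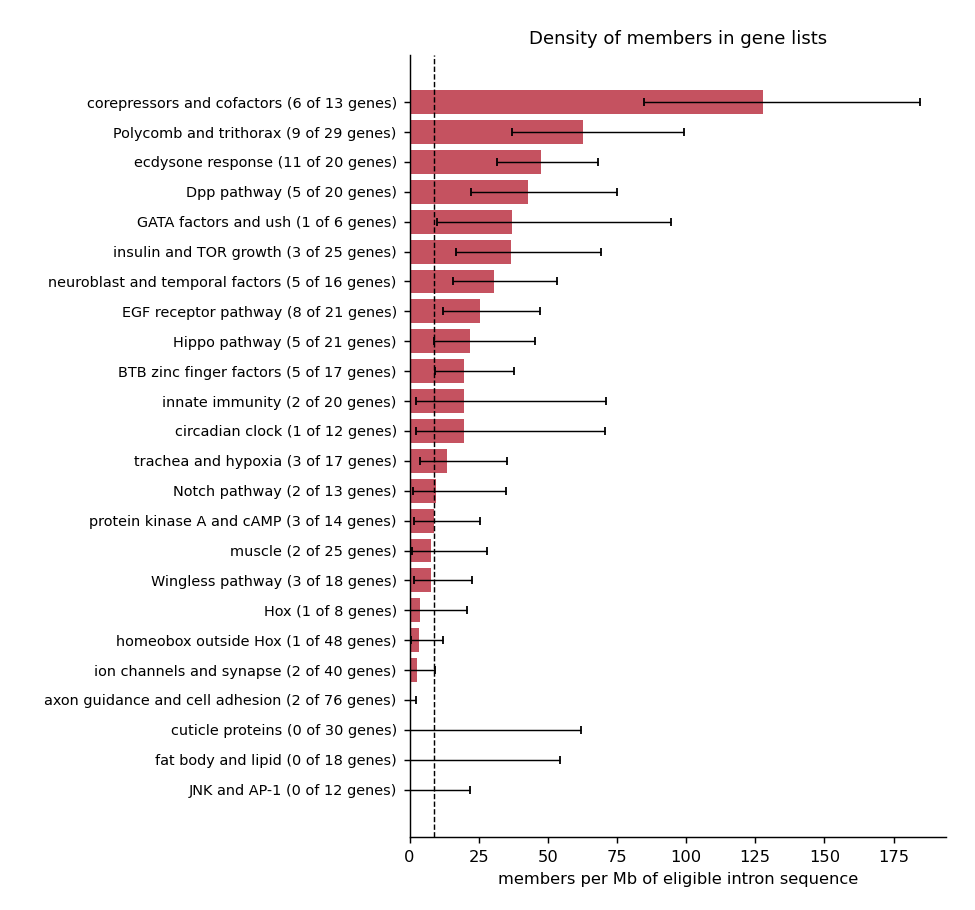
Intronic regions per Mb of eligible sequence for 24 gene lists with at least 50 kb of it, with exact Poisson 95% intervals; the dashed line is the 8.80 per Mb of all eligible genes. Cofactors, Polycomb and trithorax, ecdysone, Dpp, neuroblast and EGF receptor lists have intervals above the line, and axon guidance lies below it at 0.70 per Mb. The insulin interval lies above it only with InR. The GATA, Hippo and BTB intervals start just above it, and without ush, crb and psq, in that order, they hold it. The lists were chosen with earlier results of these data known, so these positions are descriptions and not tests.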

How the data were processed

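ChIP-seq regions of Jim-GFP were read as deposited, in 10-column lists without headers. Per the deposited notes, a replicate list was made from the alignment of 1 replicate with a control, the pooled list from both alignments with a control, and the IDR list from these 3. The sources used here do not give the aligner, the caller, the IDR threshold or the read depth. The deposited signal of a region is the authors' value, on the scale of their caller, whose lowest value was 10.9 for replicate 1, 12.4 for replicate 3 and 20.6 for the pooled list. Signal was therefore used to describe and rank regions within a list only. The IDR regions were the strongest of the pooled list, without a gap. The dm3 lists were not used.

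Summits were placed on the annotation of Ensembl release 115 (BDGP 6.54, 18164 genes, transposable elements left out), with positions counted from 1. Sequence came from the RefSeq Release 6 genome, and printed windows were taken from arms 2L, 3L and 3R. A region counted as found in a replicate by its summit, among as many of the top regions there as the IDR list holds. Shares carry exact Clopper-Pearson intervals, densities exact Poisson intervals and medians order-statistic intervals, all at 95%. No test was run, since there is 1 group, and regions and genes are not replicates. The labels call the samples biological replicates of 1 line. The placing and motif search were tested on simulated data with planted positions. The regions, the 27 gene lists and the 21 preset motifs were chosen with earlier results of these data known. Among list entries 12 needed an older symbol and 11 had no match, or none that was unique. The entry sprout was dropped as it led to InR. Text names the 10 strongest regions, genes with at least 4 regions, up to 4 hosts per list by signal, the 3 regions on each side of 500 bp and the 10 leading words of 6 bases, with exceptions named as such; 1 gene list and 1 of the 10 strongest regions are not reported here. Software was matplotlib 3.10.9, scipy 1.17.1, pandas 2.3.3 and numpy 2.4.6, under Python 3.11.15.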

Additional observations from a re-analysis of the deposited data

How the results depend on the processing

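With only the upper part of the IDR list by rank, cut at its middle, 181 members had a median signal of 115.43, and with a prefix of the pooled list double as long 764 members had one of 63.84 and a GA repeat share of 25.8%. The member share was 23.1% with 1000 bp from starts and 33.2% with 250 bp. Whole replicate lists put 93.2% of members in both. With 25 bp to each side of the summit the A tract, GA and CA shares were 14.2%, 15.1% and 4.11%, and with 100 bp these and the forkhead share were 34.0%, 53.7%, 17.3% and 9.04%, while the flank shares of the first 3 were 3.01%, 7.26% and 2.19%, then 15.1%, 29.3% and 7.40%. With 1000 bp in place of 500 bp, 55.9% of host genes had a start peak. The host genes were still those with a region more than 500 bp from starts. An intronic region between 500 and 1000 bp from a start of its own gene therefore counted as the start peak too. Part of the rise is thus built in, and no share at 1000 bp is given for genes without a region, so no conclusion is drawn from it.

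Leaving out 1 replicate gave 342 to 404 members, a member share of 28.5% to 32.3%, first-intron shares of 48.0% to 50.0%, A tract shares of 20.2% to 20.5%, GA shares of 26.5% to 33.6%, CA shares of 9.65% to 10.4%, forkhead shares of 3.80% to 7.92% and start-peak shares of 30.1% to 36.9%. Host genes numbered 236 to 299, an alternative chosen after seeing the data. Other alternatives for the main values, 40 of 58, stayed within their intervals or within 1.5 times a count. For single gene lists, 15 of 54 values moved, each printed with its list. The causes were not tested. Read depth is unknown, and the deposited lists end at a minimum signal, so absence from a list is not absence of binding. No paired analysis was possible because there is 1 group.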

Other observations

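Beyond the genes named by rule, 15 genes held exactly 3 regions and are named here after their values were seen. The strongest were Snoo (FBgn0085450), the fly Ski-family corepressor gene, with signals of 185.1, 85.0 and 74.8, and simj (FBgn0010762), a subunit gene of the NuRD chromatin complex, with 167.4, 84.9 and 81.2. In atos (FBgn0033638) the 3 regions were nearly equal, at 113.7, 111.9 and 110.1. Those of psq, whose product reads GA repeats, had signals of 149.2, 129.8 and 85.4. Glut4EF and CG46467 overlap and share their 3 regions, at 116.7, 107.3 and 93.1.

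The 11 regions with an AP-1 site lay in osp, tou, sbb, spas, AGO1, crb, shn, Khc, Pepck2, Ndae1 and fray, with signals of 528.0, 135.8, 110.7, 109.1, 104.6, 90.5, 88.8, 84.1, 82.1, 67.7 and 66.9 in that order. The region in Ndae1 had no region of replicate 1 at its summit, and ranked 452 in replicate 3. Of all members, 117 (32.1%) had another IDR summit within 2 kb and 196 (53.7%) within 5 kb. A single member summit lay inside more than 1 gene body in 23 cases, and 7 regions touched an exon with a base outside the summit.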
